A study of Saccharomyces cerevisiae BY4743 with 24 samples.

Results

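The small nucleolar RNAs (snoRNAs) and spliceosomal RNAs of Saccharomyces cerevisiae were followed along polysome gradients at 30 °C and 42 °C. They were taken as the non-coding RNA entries of the deposited table whose symbol starts with SNR, together with LSR1, which gave 82 of 6087 entries: 47 box C/D snoRNAs, 29 box H/ACA snoRNAs and 6 spliceosomal RNAs. All 82 matched the RefSeq table of build R64. The diploid strain BY4743, with no further genotype given, was grown at 30 °C to mid-log phase in synthetic medium with 2% raffinose and 0.005% glucose. The 12 libraries of the 30 °C groups came from cells sampled there, and the 12 libraries of the 42 °C groups from cells collected on a filter, moved into 42 °C medium and harvested 30 min later, so the filtration is part of every comparison of temperature. All cells received cycloheximide at harvest, and lysates were separated on sucrose gradients whose fractions were joined into 4 pools. The library names call pools 1, 2 and 3 mono, di and tri and number the last one 4, which makes 8 groups of 3 libraries from 6 gradients. Nothing in the labels says that the replicates are separate cultures, so the p-values measure the spread between these samples.

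Box C/D snoRNAs guide the methylation of ribose and box H/ACA snoRNAs guide the formation of pseudouridine, mostly in ribosomal RNA precursors in the nucleolus, and a few of them are needed for the cuts that release the 18S rRNA. The spliceosomal RNAs U1, U2, U4, U5 and U6 recognise introns and form the catalytic core of the spliceosome in the nucleus. Neither class encodes protein, and a polysome pool holds them only as far as particles that carry them enter the lysate and sediment there.

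Levels are given as TPM (transcripts per 1000000 transcripts) set against the 25S rRNA RDN25-1 of the same library, in parts per 1000000 of its TPM, written as ppm of 25S. TPM is divided by a length that the quantification sets, and for short RNAs this was not the annotated length. In replicate 1 of pool 1 at 42 °C SNR79 (84 nt), SNR18 (102 nt) and SNR76 (109 nt) were all at 1.34 TPM. Levels, shares and sums of RNAs of different lengths are therefore not on 1 scale of abundance. The total depth is unknown, because TPM does not keep it. Mature rRNA took 96.1 to 99.8% of the TPM of a library and the 82 RNAs 0.0454 to 0.181%. The 25S rRNA took 9.70, 15.5 and 26.9% in the 3 libraries of pool 1 at 42 °C, and up to 44.9% elsewhere, so levels in that group rest on the smallest 25S values. The mRNA sum also differed, from 14670 to 117594 ppm of 25S, and was lowest in those same 3 libraries.

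Short snoRNAs were rarely detected in these libraries. Of the 82 RNAs, 15 had a TPM above 0 in all 24 libraries, 9 were listed at 0 in all of them (the box C/D RNAs SNR39, SNR51, SNR53, SNR59, SNR62, SNR65, SNR71, SNR75 and SNR87), and the median RNA was above 0 in 6.5 libraries. The 40 RNAs under 130 nt, of 78 to 126 nt, were above 0 in a median of 2 libraries, and 1 of them, the U6 RNA SNR6 of 112 nt, in all 24. The 42 RNAs of 136 to 1175 nt were above 0 in a median of 17 libraries, and 14 of them in all 24. The length limit was chosen after the values were seen.

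Of the 40 short RNAs 39 were box C/D snoRNAs, with a median of 2 libraries above 0. The 8 box C/D snoRNAs above the limit had a median of 21 libraries, with 4 in all 24, so the difference by length was present within that class. All 29 box H/ACA snoRNAs were longer than the limit, with a median of 16 libraries. The lowest value above 0 of an RNA under 130 nt was 1.00 to 11.8 TPM, or 10.3 to 29.0 ppm of 25S, depending on the library. A short snoRNA at 0 was therefore not detectable at this depth below about that level. The number of RNAs above 0 ran from 26 to 49 per library. Its group means in pools 1 to 4 were 36.7, 39, 32.3 and 36.3 at 30 °C and 42.3, 30.3, 36 and 30.3 at 42 °C.

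**Figure D1:**
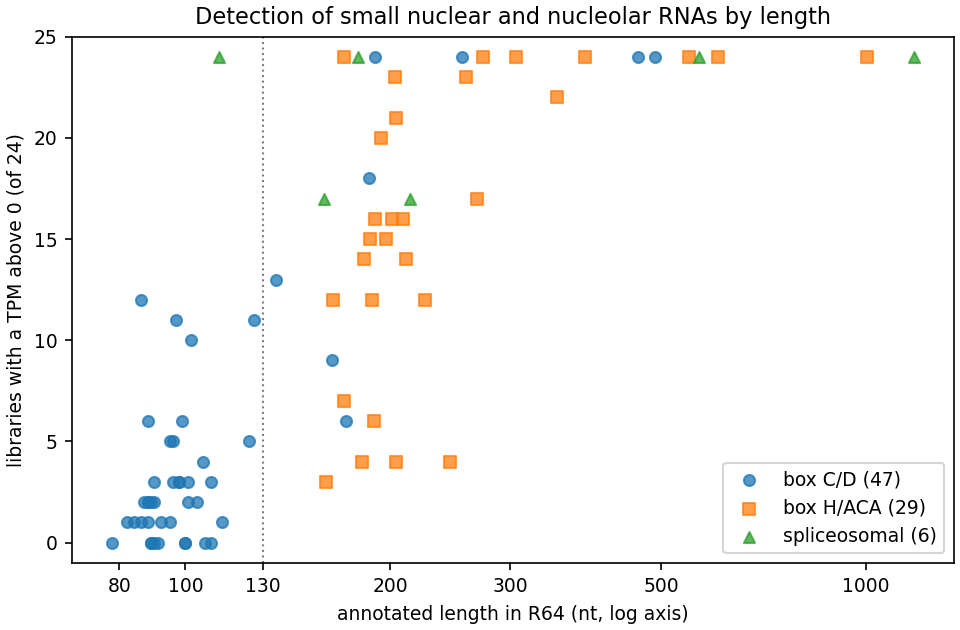
Number of libraries (of 24) with a TPM above 0 for each of the 82 RNAs against annotated length in nt on a log axis, with a dotted line at 130 nt. Of the RNAs left of the line, SNR6 alone reaches 24 libraries, and 14 of those right of it do.

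A single RNA, SNR190, made up much of the summed level. SNR190 is a box C/D snoRNA of 190 nt, annotated on chromosome X at 139761 to 139950 on the minus strand of R64. It averaged 2037 ppm of 25S at 30 °C and 546 at 42 °C, and held 16.6 to 84.3% of the TPM of all 82 RNAs in a library. Ranked by TPM among the 6077 entries that are neither rRNA nor spike-in, it stood between 1 and 12 in the libraries at 30 °C and between 4 and 28 at 42 °C. Its share and rank rest on the length used for its TPM, so they do not measure its abundance beside longer or shorter RNAs.

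Next in mean level at 30 °C came the U6 RNA SNR6 (546 ppm of 25S), the U1 RNA SNR19 (227), the box H/ACA RNA SNR191 (120.5) and the short U5 RNA SNR7-S (107). At 42 °C the order was SNR190, SNR6 (492), SNR19 (247), SNR7-S (127) and SNR191 (35.3). SNR6 lay between 27.9 and 1421 at 30 °C and between 116 and 1889 at 42 °C, so neighbours in this order overlapped across libraries. The order is one of TPM among RNAs of different lengths and carries the same limit. The means of both snoRNAs in the list were lower at 42 °C.

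Pools 1 to 4 at 30 °C had a summed level of the 82 RNAs of 4175 ± 430, 3710 ± 1223, 2823 ± 286 and 3430 ± 829 ppm of 25S (SD, n = 3). At 42 °C the sums were 3304 ± 1822, 1374 ± 380, 1535 ± 114 and 1327 ± 159. The libraries of the 2 temperatures overlapped in pool 1 and did not in pools 2 to 4, where all 3 at 42 °C lay lower. The heat difference of the sum on the log2 scale was −0.49, −1.42, −0.88 and −1.35 from the first pool to the last. In pool 1 it ran from −0.90 without 42 °C replicate 1 to −0.079 without 42 °C replicate 3. Without SNR190 the differences were 0.00, −0.70, 0.16 and −0.36. The spliceosomal RNAs alone summed to 1847, 1018, 513 and 344 at 30 °C and to 2009, 652, 635 and 371 at 42 °C.

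**Figure D2:**
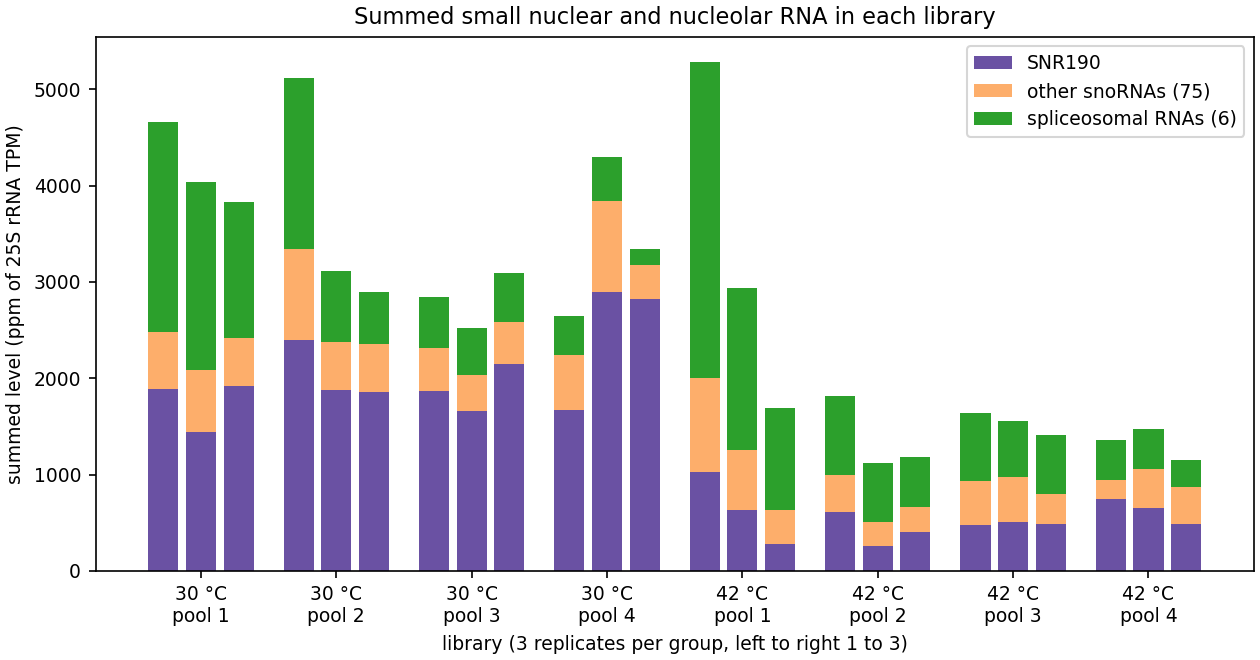
Summed level in ppm of 25S rRNA TPM in each of the 24 libraries, split into SNR190, the other 75 snoRNAs and the 6 spliceosomal RNAs. The SNR190 segment is at least 1438 in each library at 30 °C and at most 1022 at 42 °C, and the mean spliceosomal segment is highest in pool 1 at both temperatures.

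Levels were then compared with limma on log2(level + 1) over all entries other than rRNA and spike-ins that reached 1 ppm of 25S in at least 3 libraries. Of the 82 RNAs 57 passed, among 3165 entries in all; 23 were box C/D, 28 box H/ACA and 6 spliceosomal. The 25 left out were 24 box C/D RNAs, 1 of them the U3 copy SNR17B, and the box H/ACA RNA SNR82. A change was called where the Benjamini-Hochberg adjusted p over all 3165 entries was under 0.05, 2-sided, and fold changes on this scale are compressed for low RNAs.

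Spliceosomal RNAs were concentrated in pool 1, the lightest pool analysed, at both temperatures. All 6 fell from pool 1 to pool 4 at 30 °C and 5 of 6 at 42 °C, by a median log2 difference of −2.73 and −2.85 over the 6, while the median of all entries tested was 0.58 and 0.51. Among all entries 4.58% were lower in pool 4 at 30 °C and 54.8% higher, and at 42 °C 1.86% were lower and 45.5% higher. Of the 57 RNAs together, 9 were lower and 3 higher at 30 °C, and 10 were lower and 0 higher at 42 °C in limma (15 and 2 at an unadjusted p under 0.05). On other scales the 42 °C count was smaller: 3 of the 6 spliceosomal RNAs were lower with TPM as deposited (SNR6, SNR14 and SNR7-S) and 2 relative to the spike-ins (SNR6 and SNR7-S). At 30 °C the counts were 6 and 4 of 6. Whether the RNA was free in the lysate or in large particles was not measured.

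U6 (SNR6), which joins the catalytic core after U4 is released, fell most among the 4 spliceosomal RNAs detected in all libraries at 30 °C. Its level in pool 1 at 30 °C was 1357, 1421 and 726 ppm of 25S, against 194, 296 and 27.9 in pool 4. At 42 °C the values were 1889, 1102 and 657 in pool 1 and 127, 216 and 116 in pool 4. The pools did not overlap at either temperature. The log2 differences were −3.24 ± 0.53 (SE, adjusted p = 0.0031 in limma) and −2.91 ± 0.53 (adjusted p = 0.0047 in limma), and without the pseudocount the geometric mean was 9.57-fold lower in pool 4 at 30 °C and 7.54-fold lower at 42 °C. Means in pools 2 and 3 were 573 and 269.9 at 30 °C and 285 and 315 at 42 °C, between those of the outer pools.

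U5 holds the exons together during splicing and is annotated as a short form, SNR7-S, that lies within a longer one, SNR7-L, so reads of the shared part are divided between them by the quantification. SNR7-S was at 205, 167 and 180.3 ppm of 25S in pool 1 at 30 °C and at 64.3, 31.6 and 13.9 in pool 4. At 42 °C it was at 809, 199.5 and 124 in pool 1 and at 50.7, 21.6 and 28.8 in pool 4. Pool 1 lay above pool 4 in every library, and 1 library of pool 1 at 42 °C lay far above the other two. SNR7-S fell by 2.54 ± 0.47 on the log2 scale at 30 °C and by 3.06 ± 0.47 at 42 °C.

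SNR7-L was at 51.6, 18.1 and 43.1 in pool 1 at 30 °C and at 13.1, 6.42 and 0 in pool 4. Its fall of 2.91 ± 1.02 had an adjusted p of 0.044 in limma and was lost under 10 of 15 alternatives. At 42 °C the difference was −2.79 ± 1.02 and was not called. The long form thus had lower levels than the short form in each group, and its pool difference had the largest standard error of the 6.

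LSR1, the U2 RNA that pairs with the branch site, was at 42.4, 21.7 and 20.7 ppm of 25S in pool 1 at 30 °C and at 4.30, 5.25 and 3.88 in pool 4. At 42 °C it was at 34.2, 18.3 and 11.9 in pool 1 and at 6.01, 4.91 and 5.23 in pool 4. Neither pair of groups overlapped, and the group means fell from pool to pool at both temperatures. LSR1 fell by 2.35 ± 0.32 at 30 °C and by 1.70 ± 0.32 at 42 °C. The 42 °C call was lost with TPM as deposited, at −0.41 (adjusted p = 0.28 in limma), and relative to the spike-ins, at −1.10 (adjusted p = 0.074 in limma).

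SNR14, the U4 RNA that pairs with U6, was at 38.8, 59.2 and 84.7 in pool 1 at 30 °C against 0, 12.7 and 0 in pool 4, and fell by 4.62 ± 0.95. At 42 °C it was at 74.5, 72.1 and 11.6 against 0, 12.96 and 0, which overlap, and fell by 4.09 ± 0.95. As most libraries of pool 4 were listed at 0, the size of both SNR14 falls depends on the pseudocount.

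U1 (SNR19), which pairs with the 5′ splice site, had the smallest pool difference of the 6. It was at 480.1, 261 and 362 ppm of 25S in pool 1 at 30 °C and at 134, 101 and 124 in pool 4, where it fell by 1.58 ± 0.23. At 42 °C it was at 407, 262 and 245 in pool 1 and at 221, 159 and 128 in pool 4, a fall of 0.85 ± 0.23 (adjusted p = 0.021 in limma). The 42 °C call depended on the scale and on the samples. With TPM as deposited the value was 0.55, the opposite sign, and the call was lost without any 1 of the 3 replicates at 42 °C. The 25S share of TPM was lower in pool 1 than in pool 4 at 42 °C, and its part in these differences was not tested beyond the other scales.

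**Figure D3:**
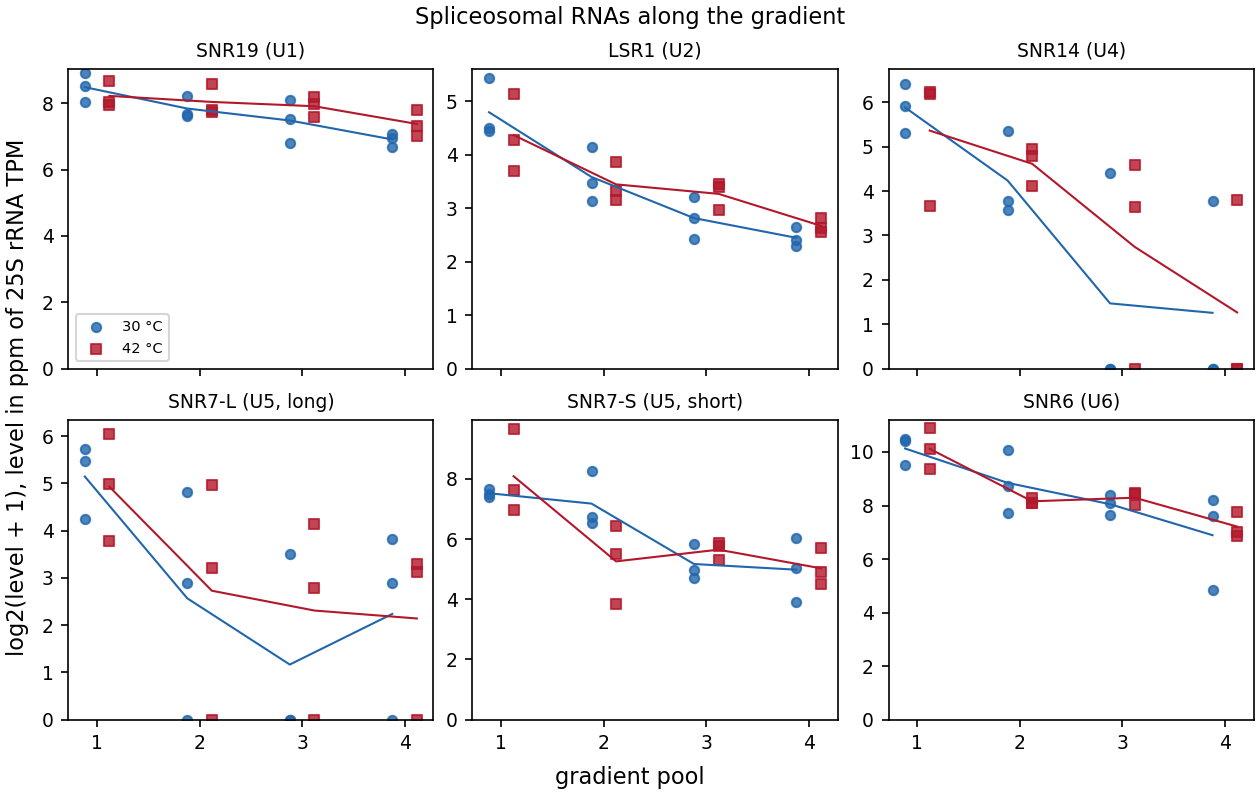
log2(level + 1) in ppm of 25S rRNA TPM of the 6 spliceosomal RNAs in pools 1 to 4, with a point per library and a line through the means of the 3 libraries at 30 °C (blue circles) and 42 °C (red squares). Levels in pool 1 lie above those in pool 4 in each library for SNR6, SNR7-S and LSR1 at both temperatures.

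Other stable non-coding RNAs were set beside them. SCR1, the RNA of the signal recognition particle, fell from pool 1 to pool 4 by 1.21 ± 0.34 at 30 °C and by 1.62 ± 0.34 at 42 °C. RPR1 and NME1, the RNAs of RNase P and RNase MRP, fell by 2.63 ± 0.27 and 2.22 ± 0.38 at 30 °C and by 3.57 ± 0.27 and 3.57 ± 0.38 at 42 °C. The telomerase RNA TLC1 fell by 0.83 ± 0.15 at 30 °C and was at −0.11 ± 0.15 at 42 °C, not called. Its highest level in a library at 42 °C was 0.392 ppm. The pseudocount therefore compresses its value at 42 °C, and no absence of a fall is read from it. A lower level in pool 4 was thus measured for all 4 of these RNAs at 30 °C and was not a feature of spliceosomal RNAs alone.

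The calls of snoRNAs along the gradient differed by class. Of the 23 box C/D RNAs tested at 30 °C 0 were lower and 1 higher (SNR69, above 0 in 3 libraries, through which it passed the filter) in limma, with a median of 0. At 42 °C 0 were called, with a median of −0.30. At an unadjusted p under 0.05, 2 were lower at 30 °C, and 1 was lower and 1 higher at 42 °C. Of the 28 box H/ACA RNAs 3 were lower at 30 °C (SNR43, SNR84 and SNR86) and 2 higher (SNR9 and SNR10), and 5 were lower at 42 °C (SNR3, SNR8, SNR9, SNR36 and SNR43), with medians of 0.06 and −0.94. Among all entries tested 4.58% were lower and 54.8% higher at 30 °C, and 1.86% lower and 45.5% higher at 42 °C. SNR190 was at 1892, 1438 and 1919.6 ppm of 25S in pool 1 at 30 °C and at 1672, 2898 and 2818 in pool 4, which overlap. Its difference was 0.46 ± 0.36 at 30 °C and 0.12 ± 0.36 at 42 °C, not called at either. At 42 °C it was called higher in pool 4 with TPM as deposited (1.52, adjusted p = 0.013 in limma) and lower relative to the mRNA sum (−1.72, adjusted p = 0.029 in limma), so no direction is given.

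The counts at 42 °C depended on the scale. With TPM as deposited 7 of the 57 RNAs were higher in pool 4 and 6 lower, with a median of −0.02, where 64.6% of all entries were higher and 0.849% lower. Set against the mRNA sum of each library in place of the 25S rRNA, 21 of 58 RNAs were lower in pool 4 at 42 °C and 0 higher in limma (30 and 1 at an unadjusted p under 0.05), among them 13 box H/ACA RNAs, SNR190, SNR17A and all 6 spliceosomal RNAs, where 11% of all 3171 entries tested were lower and 1.64% higher. At 30 °C 6 of 58 were lower on that scale, 5 of them spliceosomal, where 2.43% of all entries were lower. SNR6, SNR7-S, LSR1 and SNR19 were called lower in pool 4 at 30 °C, and SNR6 and SNR7-S at 42 °C, under all 15 alternatives run.

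Heat was examined next, in each pool and over the mean of the 4 pools of a gradient. Over that mean, 6 of the 57 RNAs rose and 15 fell, with a median log2 difference of −0.21, whereas 16.1% of all entries tested were higher and 58.3% lower, with a median of −0.60. By class, 2 box C/D RNAs rose and 7 fell, 4 box H/ACA RNAs rose and 8 fell, and 0 of 6 spliceosomal RNAs were called in limma (0 at an unadjusted p under 0.05). Of the 21 calls, 6 were of RNAs that reached the filter level of 1 ppm at 1 temperature alone and so had to differ: SNR10, SNR61, SNR69, SNR73 and SNR86 at 30 °C, and SNR55 at 42 °C. Among the other 51 RNAs 5 rose and 10 fell. These include SNR13, SNR80 and SNR128, above 0 in 1, 1 and 2 libraries at 42 °C, and SNR41, in 1 at 30 °C. They met the filter of 3 libraries through the other temperature, so their calls are no test either. Many of the 57 were listed at 0 in several libraries, and whether this bears on the lower count was not tested. In such pooled lysates, whether an RNA became rarer in the cells or moved to fractions outside the 4 pools cannot be told apart.

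In single pools the RNAs called higher numbered 3, 1, 5 and 2 in pools 1 to 4, and those called lower 4, 11, 5 and 11. The shares of all entries called higher were 7.96, 12.4, 17.5 and 14.9%, and the shares called lower 52.6, 49.5, 47.2 and 51.8%. The direction in pool 1 turned with the scale: 18 RNAs were higher and 1 lower relative to the mRNA sum (43.3 and 19% of all entries), and 1 was higher and 12 lower with TPM as deposited (2.88 and 65.2%). In pool 2 the mRNA sum scale gave 6 higher and 4 lower. Of the 57 RNAs, 4 fell in each of the 4 pools (SNR190, SNR191, SNR84 and SNR86), 1 rose in each (SNR30) and 33 were called in no pool. The SNR30 call was lost in pool 1 under 8 of 17 alternatives and in pool 2 under 5. All 5 of these were above 0 in all 24 libraries. Among the 14 tested RNAs with that property 5 fell and 1 rose over the mean of the pools. SNR86 is in both of these counts of falls, but its calls are no test, as it passed the filter through 30 °C alone.

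These counts depended on what the RNAs were set against. Relative to the mRNA sum, which itself was lower per 25S rRNA at 42 °C in pools 1 to 3, 12 of 58 RNAs rose and 4 fell over the mean of the pools, where 33.6% of all entries rose and 34.6% fell. Relative to the spike-ins 0 of 59 were called in limma, with 3 at an unadjusted p under 0.05, where 0.245% of all entries rose and 2.56% fell. The spike-ins summed to 22.7 to 94.3 TPM in the replicate 1 libraries of both temperatures and to 246 to 511 TPM in all others. The spike-in scale thus sets replicate 1 apart within each group, and calls lost on it, here and below, carry this limit. With the replicate number as a block 6 fell on that scale, beside 19.9% of all entries. The standard error of SNR190 was 0.30 per 25S rRNA and 1.45 per spike-in, with differences of −1.96 and −2.15.

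**Figure D4:**
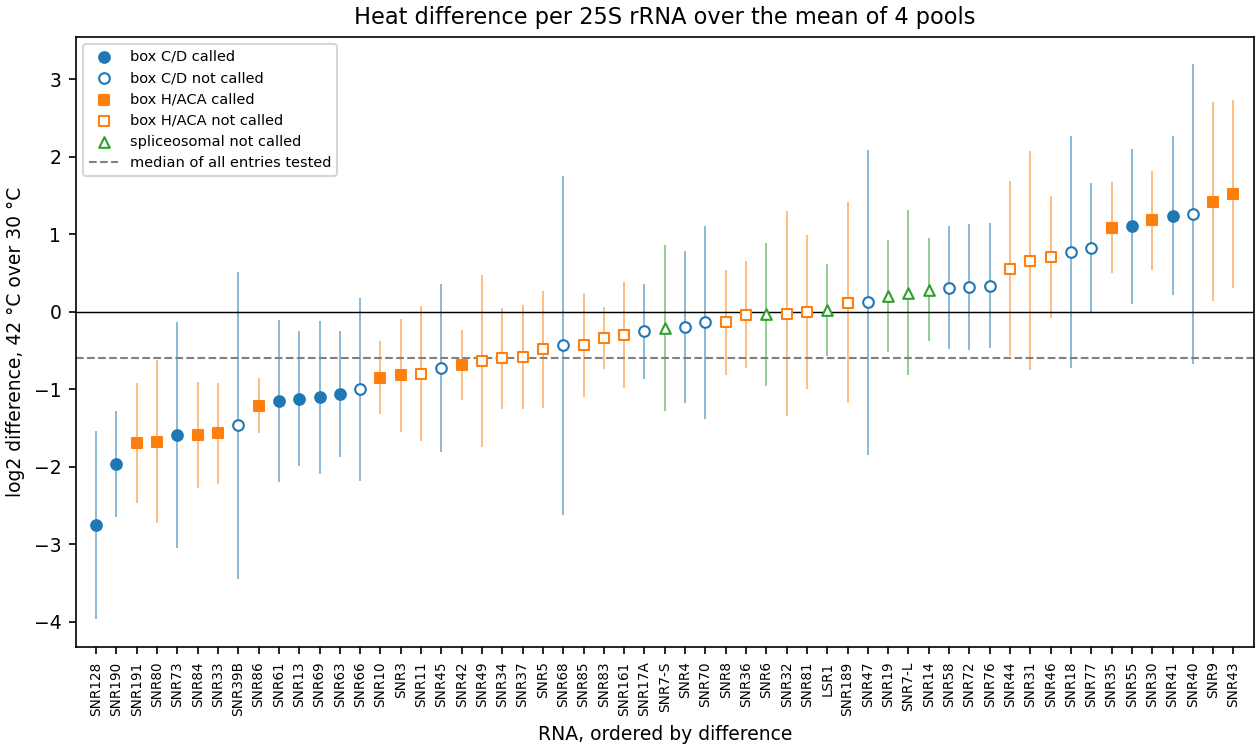
log2 difference of 42 °C over 30 °C per 25S rRNA over the mean of 4 pools for the 57 RNAs tested, ordered by value, with 95% confidence intervals from limma. Filled symbols are called and open ones not, the dashed line is the median of all entries tested (−0.60), and the 6 spliceosomal RNAs (green triangles) lie between −0.21 and 0.28.

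SNR190 was lower at 42 °C in every library of every pool. In pool 2 it was at 2401, 1882 and 1853 ppm of 25S at 30 °C and at 608, 257 and 405 at 42 °C. In pool 4 it was at 1672, 2898 and 2818 against 742, 648 and 486. The lowest value at 30 °C, 1438, lay above the highest at 42 °C, 1022. Over the mean of the pools SNR190 fell by 1.96 ± 0.30 on the log2 scale (adjusted p = 0.00030 in limma), and without the pseudocount the geometric mean was 3.90-fold lower, with 3.06, 5.09, 3.84 and 3.88-fold in pools 1 to 4. The call was lost on the spike-in scale, and set against the mRNA sum the value in pool 1 was 0.58, the opposite sign.

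SNR128, the U14 RNA, is a box C/D snoRNA needed for release of the 18S rRNA. It lies 69 nt from SNR190 on the same strand, at 139566 to 139691, and the pair is known to be cut from a common precursor. SNR128 was above 0 in 9 of 12 libraries at 30 °C, with values from 13.7 to 49.8 ppm of 25S, and in 2 of 12 at 42 °C, both in pool 1, at 10.3 and 14.5. In pools 2 to 4 at 42 °C it was listed at 0 in all 9 libraries. Over the mean of the pools it fell by 2.75 ± 0.53 (adjusted p = 0.0013 in limma), a value that depends on the pseudocount. Its values above 0 lie near the lowest level detectable for an RNA of its 126 nt, so no fold is given. SNR128 met the filter of 3 libraries through 30 °C alone, so its heat calls are no test.

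SNR191 guides pseudouridine formation in the 25S rRNA and lies in an intron of NOG2, which encodes a GTPase of 60S subunit assembly. In pool 1 it was at 191.7, 115 and 105 ppm of 25S at 30 °C and at 70.7, 58.2 and 33.7 at 42 °C. In pool 4 it was at 89.7, 104 and 116 against 34.5, 22.99 and 25.3. The groups did not overlap in either pool, while in pool 3 the lowest library at 30 °C, 38.7, lay below the highest at 42 °C, 40.6. SNR191 fell by 1.69 ± 0.34 (adjusted p = 0.0016 in limma), 3.31-fold as a geometric mean. The pool 3 call was lost under 10 of 17 alternatives, and set against the mRNA sum the value over the pools was −0.66 (adjusted p = 0.15 in limma) and that in pool 1 was 0.84.

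SNR84 and SNR86 are long box H/ACA snoRNAs of 550 and 1004 nt that guide pseudouridine formation in the 25S rRNA. SNR86 was at 4.35, 2.51 and 2.83 ppm of 25S in pool 1 at 30 °C and at 0.486, 0.438 and 0.240 at 42 °C, and in pool 4 at 1.57, 1.54 and 1.54 against 0.362, 0.457 and 0.384. All 12 libraries at 42 °C lay below all 12 at 30 °C. SNR86 fell by 1.21 ± 0.15 (adjusted p = 0.00011 in limma), a value compressed by the pseudocount, and was 5.70-fold lower without it. It passed the filter only through the libraries at 30 °C, and no library at 42 °C reached 1 ppm, so its heat calls are no test.

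SNR84 in pool 1 was at 14.4, 5.93 and 6.22 at 30 °C against 2.84, 0.894 and 0.981 at 42 °C, and in pool 4 at 3.69, 2.81 and 3.84 against 0.581, 0.651 and 1.15. The groups of each pool did not overlap. SNR84 fell by 1.59 ± 0.30 (adjusted p = 0.0011 in limma), 5.2-fold as a geometric mean without the pseudocount, and set against the mRNA sum it was at −0.81 (adjusted p = 0.058 in limma). Both RNAs also fell from pool 1 to pool 4 at 30 °C, SNR84 by 1.05 ± 0.32 and SNR86 by 0.71 ± 0.15. Neither was called relative to the mRNA sum (adjusted p = 0.14 and 0.075 in limma) or the spike-ins (adjusted p = 0.14 and 0.16 in limma), and the SNR84 call was lost under 6 of 14 alternatives.

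SNR63, a box C/D snoRNA of 255 nt that guides methylation of the 25S rRNA, fell by 1.06 ± 0.36 over the mean of the pools (adjusted p = 0.023 in limma). In pool 1 it was at 49.2, 16.9 and 11.5 at 30 °C against 21.7, 11.4 and 5.52 at 42 °C, which overlap, and in pool 2 at 44.3, 23.5 and 18.2 against 14.2, 15.9 and 3.86, which do not. It was called in pool 2 alone among the single pools.

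SNR30 ran the other way. It is a box H/ACA snoRNA of 606 nt that is needed for release of the 18S rRNA. In pool 3 it was at 4.80, 2.11 and 2.42 ppm of 25S at 30 °C and at 8.64, 11.1 and 8.24 at 42 °C. In pool 1 it was at 8.14, 4.22 and 4.55 against 17.2, 15.5 and 6.38. The groups did not overlap in pools 3 and 4 and overlapped in pools 1 and 2. SNR30 rose by 1.18 ± 0.28 (adjusted p = 0.0044 in limma), 2.61-fold as a geometric mean, and the call was lost on the spike-in scale, with and without a block. With TPM as deposited its value in pool 1 was 0.046 (adjusted p = 0.93 in limma), against 1.02 per 25S rRNA.

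**Figure D5:**
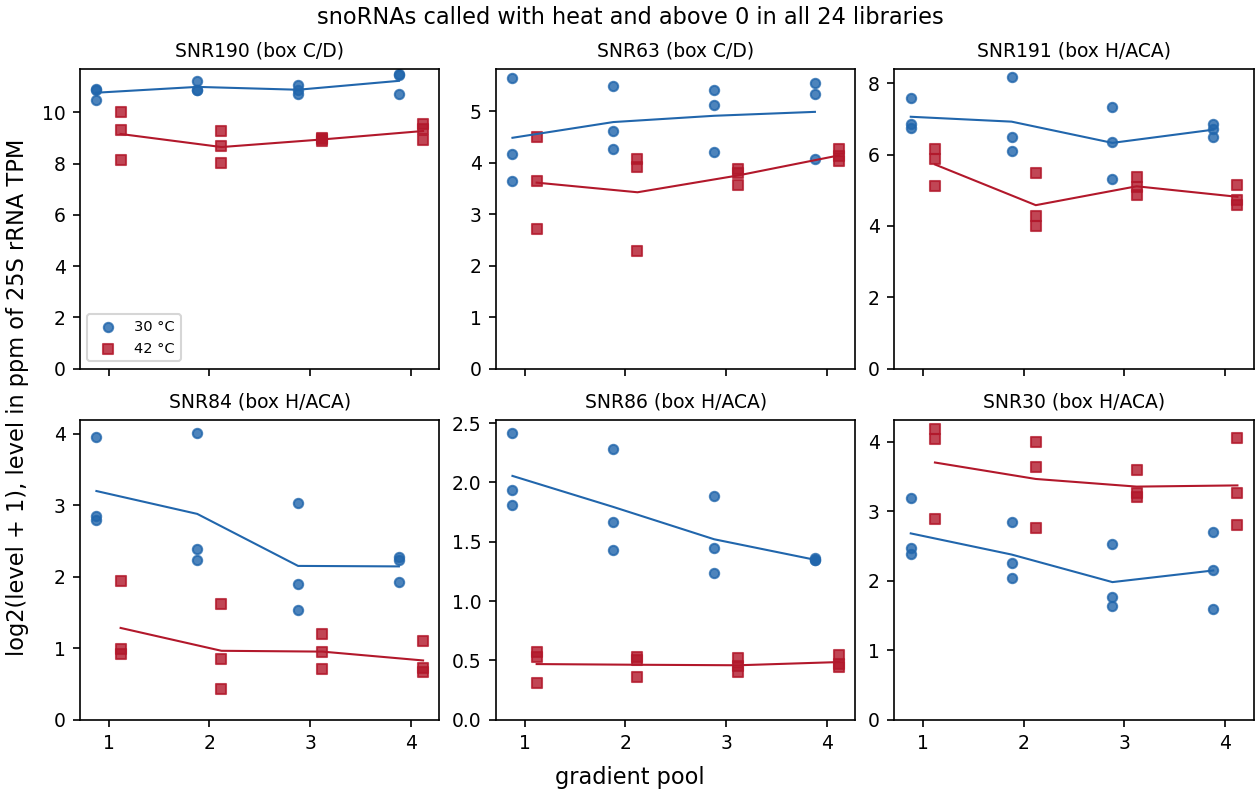
log2(level + 1) in ppm of 25S rRNA TPM in pools 1 to 4 of the 6 snoRNAs that were called over the mean of the pools and were above 0 in all libraries, with a point per library and a line through the means at 30 °C (blue circles) and 42 °C (red squares). SNR190 and SNR86 at 42 °C lie below all libraries at 30 °C, and the mean of SNR30 is higher at 42 °C in each pool. SNR86 passed the filter through the libraries at 30 °C alone.

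The other RNAs known for the early cuts of the rRNA precursor gave fewer calls. The U3 RNA is encoded by SNR17A and SNR17B, which are near identical, and SNR17A lies over the gene IRC13 on the same strand, so the division of reads between them is uncertain. SNR17A lay between 1.84 and 4.73 ppm of 25S at 30 °C and between 0.999 and 8.03 at 42 °C, and its difference was −0.25 ± 0.27, not called. SNR10, a box H/ACA RNA of this group, was above 0 in 4 libraries, all at 30 °C and none above 7.51, and passed the filter only through them, so its lower value at 42 °C is no test. Of the 5 RNAs of the group 4 passed the filter, and apart from SNR10 1 rose (SNR30), 1 fell (SNR128) and 1 was not called (SNR17A). The SNR128 call is no test, as it met the filter through 30 °C alone. SNR37, which guides pseudouridine formation at the peptidyl transferase centre of the 25S rRNA, was at −0.58 ± 0.30, not called.

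SNR35, which guides the first step of the modified uridine in the decoding region of the 18S rRNA, rose by 1.08 ± 0.26 (adjusted p = 0.0041 in limma) and was above 0 in 21 libraries. The other calls of heat over the mean of the pools lay among RNAs listed at 0 in at least 1 library: SNR9, SNR41 and SNR43 were higher, and SNR3, SNR13, SNR33, SNR42 and SNR80 lower, beside SNR55, SNR61, SNR69 and SNR73, which were above 0 at 1 temperature alone. SNR13, SNR41 and SNR80 met the filter of 3 libraries only through the temperature where they were higher, so their calls are no test. In single pools the largest calls were rises of SNR9 in pool 1 (log2 6.03) and SNR40 in pool 4 (4.71), and falls of SNR66 and SNR128 in pool 2 (−5.45 and −4.54). These 4 RNAs were above 0 in 11 to 15 libraries. Values of this size depend on libraries listed at 0 and on the pseudocount. SNR72 to SNR78, which are made from a common precursor, had 4 of 7 members tested, of which 3 were not called over the mean of the pools and SNR73 was above 0 in 4 libraries, all at 30 °C.

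The spliceosomal RNAs had log2 heat differences from −0.21 ± 0.47 (SNR7-S) to 0.28 ± 0.29 (SNR14) over the mean of the pools. The 95% confidence intervals reached from −1.27 to 0.86 for SNR7-S and from −0.52 to 0.93 for SNR19, so changes of up to about that size would not have been seen. In pool 2 SNR7-S fell, by 1.92 ± 0.69 (adjusted p = 0.020 in limma), and no other spliceosomal RNA was called in a single pool. Relative to the mRNA sum 3 of the 6 rose, LSR1 by 0.99, SNR14 by 1.22 and SNR19 by 1.25, where 33.6% of all entries rose. RPR1, SCR1 and NME1 were likewise not called per 25S rRNA, at −0.32 ± 0.32, −0.42 ± 0.40 and −0.00 ± 0.58. TLC1 was lower with heat by 0.54 ± 0.10, but reached at most 0.392 ppm of 25S in a library of the heated cells. It passed the filter through the lower temperature alone, so its heat call is no test.

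The change of the pool difference with heat was called for 1 of the 57 RNAs, SNR9, in the lower direction, where 2.88% of all entries were called lower and 3.67% higher. At an unadjusted p under 0.05, 3 were higher and 8 lower. SNR9, a box H/ACA RNA of 187 nt that guides pseudouridine formation in the 25S rRNA, was at 0 in all 3 libraries of pool 1 at 30 °C and at 36.9, 27.2 and 23.9 ppm of 25S in pool 4. At 42 °C it was at 88.7, 120.2 and 24.9 in pool 1 and at 10.9, 0 and 0 in pool 4. Its order along the gradient was thus opposite at the 2 temperatures, and the call was lost without any 1 of the 3 replicates at 30 °C. For SNR6 the change was 0.33 ± 0.75 and for SNR7-S −0.52 ± 0.67, with 95% confidence intervals of −1.45 to 2.12 and −2.12 to 1.08. Changes of these 2 RNAs within those limits could not be seen.

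Of the 8 snoRNAs that lie in introns of protein genes, 3 passed the filter: SNR191, SNR18 and SNR44. SNR18 (in EFB1) was above 0 in 10 libraries and SNR44 (in RPS22B) in 14, and their heat differences of 0.77 ± 0.66 and 0.56 ± 0.50 were not called. The host mRNA RPS22B, for a protein of the 40S subunit, fell by 4.32 ± 0.22, and EFB1, for an elongation factor, was at −0.41 ± 0.28. NOG2, the host of SNR191, averaged 6.48 ppm of 25S at 30 °C, with 2.71 the lowest library, and 0.103 at 42 °C, with 0.530 the highest, and fell by 2.69 ± 0.23. Of the 8 host mRNAs 7 fell, beside 58.3% of all entries tested. NOG2, TEF4, ASC1, IMD4 and RPL7B reached at most 0.604 ppm in a library at 42 °C, so they passed the filter through 30 °C alone.

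The mRNAs of the proteins that bind these RNAs were lower at 42 °C for the most part, as were 58.3% of all entries tested. Of the 11 core proteins and assembly factors of snoRNA particles 9 were tested, and all 9 fell, with a median of −3.30, among them the methyltransferase NOP1 (−3.25 ± 0.20), the pseudouridine synthase CBF5 (−4.18 ± 0.20) and its partner GAR1 (−4.21 ± 0.25). Of the 23 proteins of spliceosomal particles 15 were tested and 13 fell, with a median of −0.92, beside −0.60 over all entries.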

How the data were processed

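The submitters' processing notes name Trim Galore 0.6.5 for trimming, Salmon 1.9.0 for quantification and build R64. The sources used here do not give their parameters. The table the authors deposited holds TPM for 6087 entries in 24 libraries. Its columns sum to between 999968 and 999999, 3 emptied lines were skipped, and all 6082 gene IDs matched the RefSeq table.

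TPM was divided by the TPM of RDN25-1 and multiplied by 1000000. Group means of log2(level + 1) were fitted in limma 3.58.1 (R 4.3.3) with a mean-variance trend: 8 group means for heat in a pool, 6 gradient means (3 against 3) for heat over the pools, and differences within gradients for pool 4 over pool 1. In all, 8 comparisons were made. Other scales were multiplied by a constant so that the pseudocount kept its weight. Python 3.11.15 with pandas 2.3.3, numpy 2.4.6 and, for plots, matplotlib 3.10.9 did the rest. The fits were tested on simulated data.

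Named RNAs are a fixed set (the early-cleavage and spliceosomal RNAs, SNR190, SNR52 and SNR37), the 3 largest rises and falls per comparison past 5% with groups that do not overlap, the 5 highest levels at each temperature, the intronic snoRNAs with their hosts, and SCR1, RPR1, NME1 and TLC1; RNAs above 0 in all libraries, and those given by name beside a count, were chosen after their values were seen. The members, lists and rules were chosen with earlier results of these data known. SNR52, of 92 nt, did not pass the filter.

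Alternatives were pseudocounts of 0.1 and 5, a filter of 10 and none, TPM as deposited, the 18S rRNA, mRNA sum and spike-in scales, no trend, a replicate block, and leaving out each gradient. The spike-in scale with a block, pools 2 to 4 alone and the spliceosomal sum were added after seeing the data.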

Additional observations from a re-analysis of the deposited data

Results flagged for a closer look

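SNR9 stood out because its difference between pools changed with temperature by a test of that change. Pool 4 over pool 1 was 4.90 at 30 °C and −4.84 at 42 °C on the log2 scale, and the change was −9.74 (adjusted p = 0.013 in limma). SNR9 was above 0 in 15 of 24 libraries and listed at 0 in pool 1 at 30 °C, so the size depends on the pseudocount and is no bound. The call was lost with a pseudocount of 0.1 (adjusted p = 0.071 in limma), on the spike-in scale and with the replicate number as a block (adjusted p = 0.060 in limma).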

How the results depend on the processing

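The number of RNAs called with heat was 7, 12, 10 and 13 in pools 1 to 4 and 21 over their mean. It was 4 in pool 1, 8 in pool 4 and 11 over the mean with a filter of 10. In pool 1 it was 13 with TPM as deposited (1 higher, 12 lower) and 19 on the mRNA sum scale (18 higher, 1 lower), where pool 3 had 6. On the spike-in scale it was 2, 6, 2 and 6 in pools 1 to 4 and 0 over the mean, and with a replicate block as well 6 in pool 4 and 6 over the mean. For pool 4 over pool 1 it was 12 at 30 °C and 10 at 42 °C, falling to 5 and 4 on the spike-in scale, with 21 at 42 °C on the mRNA sum scale. For the change of that difference it was 1, with 0 at a pseudocount of 0.1, on the spike-in scale, with a block or with both, 4 with TPM as deposited and 21 on the mRNA sum scale. Those 4 were 3 higher and 1 lower, where 16.9% of all entries were higher and 4.73% lower. On the mRNA sum scale 1 was higher and 20 lower, where 0.284% of all entries were higher and 57.6% lower. The causes of these shifts were not tested, except that a filter of 10 leaves fewer RNAs to test.

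Leaving out 1 gradient at a time gave 4 to 7, 9 to 12, 6 to 8 and 8 to 15 calls for heat in pools 1 to 4 and 15 to 18 over their mean, 9 to 13 and 8 to 13 for pool 4 over pool 1 at 30 °C and 42 °C, and 0 to 2 for the change. The counts of 4 in pool 1 and 8 in pool 4 came without 42 °C replicate 2, that of 6 in pool 3 without any gradient but 30 °C replicate 1, that of 0 for the change without 30 °C replicate 2, and those of 2 without 42 °C replicate 2 or 3. Fewer samples were fitted in each.

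The log2 heat difference of the summed level without SNR190 was 0.0034, −0.70, 0.16 and −0.36 in pools 1 to 4, against −0.49, −1.42, −0.88 and −1.35 with it. On the mRNA sum scale it was 1.71, 0.090 and −0.42 in pools 1 to 3, and for the spliceosomal RNAs alone −0.47, 0.31 and 0.21 in pools 2 to 4. The mean number of RNAs above 0 differed by −8.67 with heat in pool 2, and by −11.3 counted from 1 ppm of 25S.

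Heat differences that were not called over the pools, or that lost their call, changed sign in places. LSR1 was at −0.0080 with a pseudocount of 5, −0.11 with TPM as deposited, −0.18 on the spike-in scale with or without a block, and −0.14 and −0.16 without 30 °C replicate 3 and 42 °C replicate 1. On the mRNA sum scale SNR17A was at 0.53, SNR37 at 0.33, SNR3 at 0.057, SNR6 at 1.01 and SNR7-S at 0.83, and in pool 1 SNR190 at 0.58 and SNR191 at 0.84. SNR6 was at 0.034 on the 18S scale and at 0.092 to 0.20 without 30 °C replicate 1 (0.196), 30 °C replicate 2 (0.203) or 42 °C replicate 3. SNR7-S was at 0.16 and 0.17 without 30 °C replicate 1 and 42 °C replicate 3, SNR7-L at −0.25 and −0.0053 without 30 °C replicate 2 and 42 °C replicate 1, and SNR19 at −0.0017 without 42 °C replicate 1. SNR9 was at −0.12 in pools 2 to 4, and SNR19 in pool 4 over pool 1 at 42 °C at 0.55 with TPM as deposited. Of the values for single RNAs under the alternatives, 961 kept direction and side of the threshold, 191 lost the call in the same direction, 9 gained one and 24 changed sign.

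Samples of one replicate number correlated at 0.053 to 0.14 between temperatures, with a mean of 0.088. Those of different numbers correlated at −0.16 to 0.063, with a mean of −0.044. Not every pair of one number passed 0.1, so the main fits did not pair the samples. That rule does not show that samples of one number were unrelated, as each of their correlations was above 0. The spike-in sums also set replicate 1 apart at both temperatures, and whether samples of one number share a batch was not tested. With the number as a block 31 RNAs were called over the mean of the pools, 10 higher and 21 lower, beside 517 and 1851 of all 3165 entries. For the change of the pool difference 0 RNAs were called with the block. Without 1 gradient, the value over the pools ran from −0.16 to 0.22 for LSR1, −0.0017 to 0.41 for SNR19, −0.50 to 0.203 for SNR6, −0.25 to 0.65 for SNR7-L and −0.66 to 0.17 for SNR7-S. Low TPM and values at 0 limit what can be said of short snoRNAs.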
